A study of Mus musculus with 16 samples.

Results

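The interferon response genes described here are 35 genes known to be induced by interferons, measured in tumour cells enriched from LLC1 tumours. They were chosen by name, with earlier results of these data known. A gene was kept when 4 or more of its 16 deposited values exceeded the table's lowest value, 4.84, by at least 1 log2 unit. All 35 named genes passed, out of 24334 genes in the table and 15715 that passed the same filter. LLC1 is a Lewis lung carcinoma line of mouse origin, so every library came from a single line grown in mice. The mice were treated for 16 days. The Vehicle group received DMSO, the TMP195 group TMP195 at 50 mg/kg, an inhibitor of class IIa histone deacetylases, the MYCi975 group MYCi975 at 50 mg/kg, an inhibitor of the transcription factor MYC, and the Combo group both compounds, for which the labels repeat no dose. Each group held 4 libraries, numbered 1 to 4. The labels give neither the strain, age or sex of the mice, nor how tumour cells were enriched. They also do not say if each library is a different animal. The p-values then describe only how libraries of a group scatter, and that scatter may be technical.

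Type I interferons bind the receptor of Ifnar1 and Ifnar2, whose kinases activate STAT proteins, STAT2 among them. With IRF9 these form the complex ISGF3, which binds the interferon-stimulated response element (ISRE) in the promoters of antiviral genes. Interferon gamma uses another receptor, acts through the gamma-activated site (GAS) and induces Irf1, chemokines and guanylate-binding proteins. Many antiviral genes respond to both kinds. In tumours both kinds of response are seen in cancer cells as well as in the leukocytes among them, and in bulk libraries fewer cells of a type and less RNA per cell cannot be told apart.

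The ISRE is what these genes are best known to share, and the stretches that carry it are shown for 6 members, among them 2 IFIT genes. Promoter sequences came from RefSeq (GRCm38.p6), matched by symbol, and 26 of the 35 members had an entry, with 31 promoters among them. In the 250 bases before the annotated start, the ISRE core was searched on both strands, as GAAA, 2 bases of any kind and GAAA. It was found in 9 of the 31 member promoters (29.03%), against 978 of all 32851 promoters (2.98%). The 9 genes were Stat2, Oas1a, Oas3, Ifit1, Ifit3, Rsad2, Bst2, Isg15 and Cxcl10. The GAS core, TTC and GAA separated by 3 bases of any kind, was found in 6 of the 31 member promoters (19.35%), against 7.02% of all. These 6 were Irf1, Oas1a, Ifit2, Eif2ak2, Samhd1 and Bst2, so Oas1a and Bst2 held both cores. Dhx58, Oas2, Mx1, Mx2, Zbp1, Usp18, Parp9, Parp14 and Rtp4 had no entry. The capitals below mark ISRE cores, which read TTTC, 2 bases and TTTC where the core lies on the opposite strand, and each stretch reads 5′ to 3′ towards the start.
Isg15, chr4:156200850-156200921, minus strand: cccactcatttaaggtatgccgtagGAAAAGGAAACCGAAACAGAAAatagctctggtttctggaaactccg
Ifit1, chr19:34640760-34640838, plus strand: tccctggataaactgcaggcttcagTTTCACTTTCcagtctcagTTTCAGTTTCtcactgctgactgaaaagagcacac
Ifit3, chr19:34583348-34583441, plus strand: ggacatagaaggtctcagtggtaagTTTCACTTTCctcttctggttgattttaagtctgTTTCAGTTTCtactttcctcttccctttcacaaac
Oas1a, chr5:120907526-120907570, minus strand: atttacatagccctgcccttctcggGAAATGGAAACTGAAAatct
Rsad2, chr12:26456538-26456597, minus strand: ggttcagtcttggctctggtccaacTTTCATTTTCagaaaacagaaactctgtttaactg
Cxcl10, chr5:92349068-92349127, minus strand: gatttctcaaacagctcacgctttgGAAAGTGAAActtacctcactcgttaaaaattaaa
Isg15 held 3 overlapping cores, which began 78, 72 and 66 bases before the start. Ifit1 held 2, at 104 and 85 bases, and Ifit3 2, at 156 and 122 bases. In Oas1a the 2 cores overlapped and lay closest to the start, at 20 and 14 bases. Rsad2 had a single core at 120 bases and Cxcl10 a single core at 213 bases.

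The depth of the libraries is unknown, since the values were deposited after variance stabilisation, on a scale close to log2 that understates differences of weakly expressed genes. The tumour cell label was compared with keratin genes, and Krt8 and Krt18 lay between 10.17 and 11.45 in all 16 libraries, whereas the epithelial genes Epcam and Cdh1 did not pass the filter. Of 9 leukocyte markers, 7 passed, and their mean level was 5.82 to 6.34 among Vehicle libraries, 6.02 to 7.66 among those of TMP195, 5.68 to 6.83 in MYCi975 and 5.73 to 6.25 in Combo. All 6 fibroblast markers passed, at a mean level between 11.62 and 12.80 in every library. No listed leukocyte marker was at the lowest value in every library. Ifit3, Oas1a, Tgtp1 and Tgtp2 have near-identical gene copies between which reads may have been divided, so values of these genes are uncertain.

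Most interferon response genes were highest in a single library, MYCi975 replicate 3. In the pairs of groups compared below, the libraries overlapped for nearly every gene. The exceptions were Zbp1 in TMP195 against Vehicle and Bst2 in Combo against MYCi975. Each gene was set against its own mean over the 16 libraries, and the median of these deviations over the 35 genes was taken for each library. It was 0.98 in MYCi975 replicate 3, followed by 0.49 in Vehicle replicate 4 and 0.28 in MYCi975 replicate 4. It was lowest in Vehicle replicate 3, at -0.51, and in Combo replicate 4, at -0.40. The Vehicle group alone thus covered a span from -0.51 to 0.49, within which lay all 4 TMP195 libraries, all 4 Combo libraries and 3 of the 4 MYCi975 libraries.

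**Figure D1:**
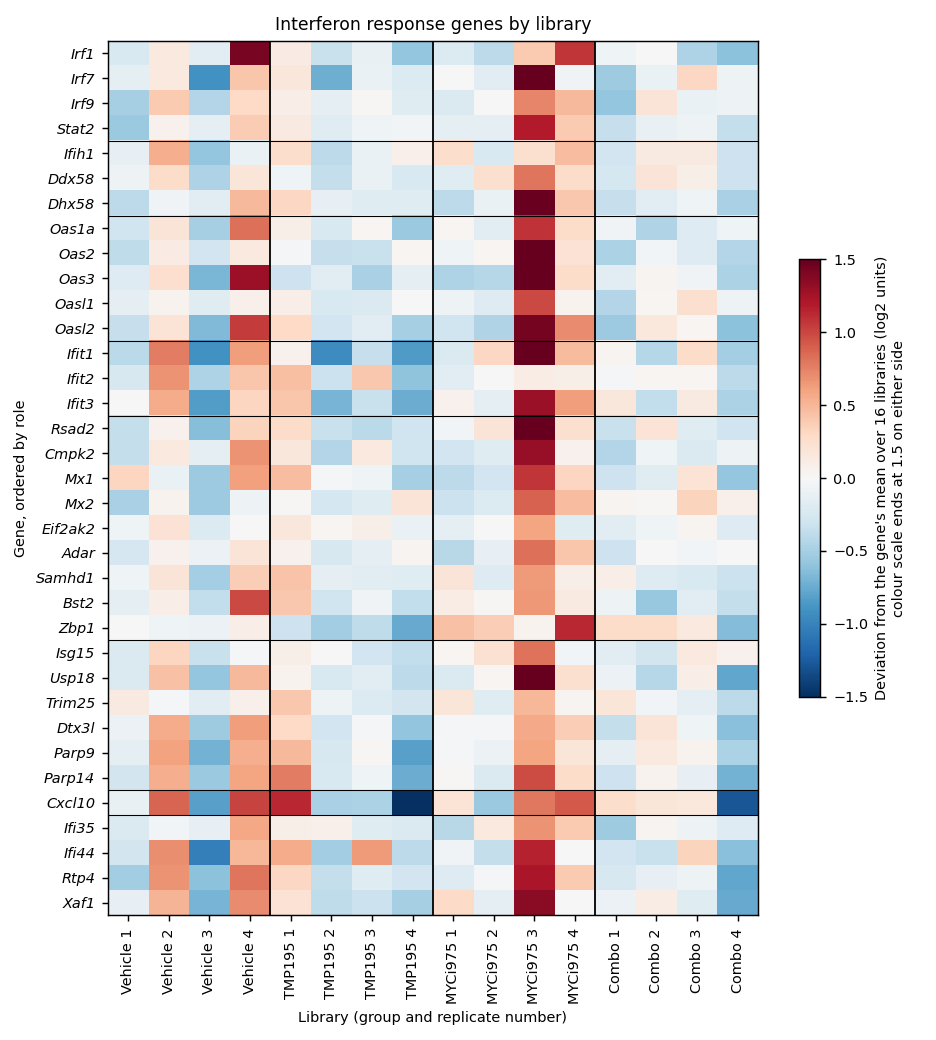
Deviation of each of the 35 interferon response genes (rows, ordered by role) from its own mean over 16 libraries (columns, by group and replicate number), in log2 units, with the colour scale ending at 1.5 on either side. The column of MYCi975 replicate 3 is the darkest red, with a median deviation of 0.98, and Vehicle replicate 3 and Combo replicate 4 are mostly blue, at -0.51 and -0.40.

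MYCi975 replicate 3 held the highest value of 27 of the 35 genes. Vehicle replicates 2 and 4 were highest for 3 genes each, and TMP195 replicate 1 (Cxcl10) and MYCi975 replicate 4 (Zbp1) for 1 each. The lowest values were spread more widely: Vehicle replicate 3 was lowest for 11 genes, Combo replicate 4 for 8 and TMP195 replicate 4 for 7. Against the mean of the other 3 MYCi975 libraries, replicate 3 was higher for 34 of 35 genes, with a median of 0.95 and a range from -0.60 for Zbp1 to 2.05 for Irf7. For 17 of the 35 genes (48.6%) this gap was over 1, which was the case for 0.897% of all 15715 genes. This only describes the library, which was singled out by the same values. Set against its own group, Vehicle replicate 4 had such a gap for 17.1% of members and 1.56% of all genes. For TMP195 replicate 1 the shares were 8.57% and 1.26%, and most other libraries had no such member. In MYCi975 replicate 3 the mean level of 7 neutrophil markers was also the highest, at 7.92 against 6.22 to 7.49 in the other 15. S100a8, S100a9, Csf3r and Cxcr2 were highest there, whereas Mmp8 (5.89), Mmp9 (8.35) and Lcn2 (6.47) were higher in other libraries. Its mean level of fibroblast markers, 11.62, was the lowest of the 16, as were its levels of the extracellular matrix genes Col1a1 (9.14) and Lum (11.43). The other fibroblast markers were not at their lowest there: Pdgfra was at 12.97, Dcn at 14.05, Col3a1 at 16.4 and Pdpn at 5.76. Its leukocyte level, 6.83, was above those of MYCi975 replicates 1, 2 and 4 (5.96, 5.68 and 6.18) and of every Vehicle and Combo library. Only TMP195 replicate 1 was higher, at 7.66, and there the median deviation of the interferon response genes was 0.17. With the leukocyte level as a covariate the median MYCi975 difference given below, 0.25, was 0.16, and the part of neutrophils and fibroblasts was not tested.

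The members varied more between libraries of the same group than most genes did. The median residual SD within groups was 0.461 for the 35 genes and 0.222 for all tested genes. For 34 of 35 it lay above the median of all genes, Eif2ak2 being the exception, and 21 of 35 were in the top 10% of all genes. The differences between the 4 groups held a median of 20.19% of a member's variance and 16.21% of the variance of all genes. Sorting 16 libraries into 4 groups gives shares of this order without any treatment effect, so these shares alone do not measure one. Replicate number held 8.20% for the members and 24.66% for all genes. Zbp1 had the largest share between groups, 59.23%, and Ifit2 the smallest, 3.58%. A median 95% confidence interval of a difference between 2 groups reached 0.597 on either side for the members.

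None of the 35 genes was called at an adjusted p under 0.05 in any of the 6 comparisons (limma with Benjamini-Hochberg adjustment), and the background was the same, 0% of 15715 genes in each. The differences below are therefore values of genes that did not pass the test. Many members were high or low in the same libraries. In MYCi975 replicate 3, 35 of 35 lay above their own mean, and in Vehicle replicate 3, 0 of 35. Members that differ in the same direction are therefore not separate observations, and the share of all genes beside such counts does not make them so. Later counts at an unadjusted p under 0.05 with a covariate or with a library left out lack the share of all genes in that setting. The members are described first by role, with their value in each library, and then by comparison.

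Among the transcription factors, Irf7, the regulator that amplifies type I interferon production, showed the single library most clearly. Irf7 was at 7.27, 7.57, 6.50 and 7.83 in Vehicle replicates 1 to 4 and 7.58, 6.68, 7.31 and 7.21 in TMP195. For Irf7, the MYCi975 values were 7.40, 7.26, 9.40 and 7.36, and the Combo values 6.88, 7.31, 7.73 and 7.34. MYCi975 replicate 3 stood 2.05 above the mean of the other 3 libraries of its group, which lay inside the span of Vehicle. Stat2, a subunit of ISGF3, was highest in the same library. Stat2 was at 9.61, 10.23, 10.01 and 10.55 in Vehicle replicates 1 to 4 and 10.30, 9.98, 10.11 and 10.12 in TMP195. For Stat2, the MYCi975 values were 10.03, 10.02, 11.36 and 10.55, and the Combo values 9.82, 10.06, 10.09 and 9.81. The 4 Combo values and the 4 TMP195 values all lay inside the Vehicle span, and MYCi975 replicate 3 lay outside it. Irf9, the DNA-binding partner of ISGF3, lay between 9.21 and 10.10 in Vehicle and between 9.12 and 9.89 in Combo, with 10.44 in MYCi975 replicate 3 and 9.49 to 10.19 in the other MYCi975 libraries.

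Irf1, a factor induced by interferon gamma, had another order of libraries. Irf1 was at 11.15, 11.52, 11.21 and 12.81 in Vehicle replicates 1 to 4 and 11.50, 11.04, 11.27 and 10.79 in TMP195. For Irf1, the MYCi975 values were 11.17, 10.99, 11.78 and 12.45, and the Combo values 11.32, 11.39, 10.91 and 10.76. Here the libraries numbered 4 were at both ends: those of Vehicle and MYCi975 were the highest of all 16, and those of TMP195 and Combo the lowest. MYCi975 replicate 3 came after the first pair.

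The OAS enzymes make a second messenger that activates the ribonuclease RNase L upon binding double-stranded RNA. Oas2 showed the gap best. Oas2 was at 7.19, 7.70, 7.29 and 7.72 in Vehicle replicates 1 to 4 and 7.56, 7.23, 7.24 and 7.61 in TMP195. For Oas2, the MYCi975 values were 7.51, 7.60, 9.61 and 7.79, and the Combo values 7.10, 7.53, 7.39 and 7.14. The groups overlapped, and MYCi975 replicate 3 stood 1.98 above the other 3 libraries of its group. Oas3 stood 1.94 above its group in that library and Oasl2 1.46, and for these genes Vehicle replicate 4 was also high, at 9.08 for Oas3 and 10.74 for Oasl2. Oas1a ran from 6.37 to 8.01 over all libraries and Oasl1, close to the lowest value of the table, from 5.58 to 7.02.

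IFIT proteins bind foreign RNA and block its translation. Ifit1 was at 9.64, 10.82, 9.14 and 10.68 in Vehicle replicates 1 to 4 and 10.12, 9.11, 9.71 and 9.20 in TMP195. For Ifit1, the MYCi975 values were 9.84, 10.37, 12.08 and 10.53, and the Combo values 10.09, 9.63, 10.33 and 9.55. MYCi975 replicate 3 was the highest library by more than 1 log2 unit, Vehicle replicates 2 and 4 came next, and the groups overlapped. Ifit3 had its highest value in the same MYCi975 library, 9.18, against 7.05 to 8.51 in the other 15. Ifit2 did not share this: it was 10.98 there, below 11.55 in Vehicle replicate 2 and 11.32 in TMP195 replicate 1.

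Of the other antiviral effectors, Rsad2 encodes viperin, which makes a chain-terminating nucleotide, and Cmpk2, its neighbour, supplies that pathway with nucleotides. Rsad2 was at 7.32, 7.73, 7.04 and 8.01 in Vehicle replicates 1 to 4 and 7.95, 7.34, 7.27 and 7.38 in TMP195. For Rsad2, the MYCi975 values were 7.63, 7.87, 9.23 and 7.92, and the Combo values 7.34, 7.88, 7.49 and 7.38. MYCi975 replicate 3 was the highest by more than 1 log2 unit, and Vehicle replicate 4 came next. Cmpk2 was 8.47 in MYCi975 replicate 3 and between 6.72 and 7.84 elsewhere. Mx2 belongs to the MX GTPases, which trap viral particles. Mx2 was at 5.92, 6.46, 5.86 and 6.33 in Vehicle replicates 1 to 4 and 6.43, 6.15, 6.22 and 6.60 in TMP195. For Mx2, the MYCi975 values were 6.09, 6.20, 7.29 and 6.87, and the Combo values 6.45, 6.42, 6.75 and 6.48. The groups overlapped, with Vehicle replicates 1 and 3 the lowest of the 16 libraries.

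Bst2 encodes tetherin, which holds budding virions at the cell surface. Bst2 was at 8.23, 8.48, 8.0 and 9.36 in Vehicle replicates 1 to 4 and 8.78, 8.08, 8.33 and 8.01 in TMP195. For Bst2, the MYCi975 values were 8.48, 8.39, 9.03 and 8.51, and the Combo values 8.29, 7.81, 8.21 and 8.02. All 4 Combo values lay below all 4 MYCi975 values, and both groups overlapped with Vehicle, whose replicate 4 was the highest library. Eif2ak2 encodes PKR, a kinase that stops translation upon sensing double-stranded RNA, and it was the least variable member. Eif2ak2 was at 12.17, 12.44, 12.03 and 12.23 in Vehicle replicates 1 to 4 and 12.40, 12.26, 12.31 and 12.12 in TMP195. For Eif2ak2, the MYCi975 values were 12.07, 12.22, 12.81 and 12.04, and the Combo values 12.06, 12.16, 12.27 and 12.04. The whole span over 16 libraries was 0.787. Adar, which edits adenosines in double-stranded RNA, Samhd1, which degrades deoxynucleotides, and Mx1 ran over spans of 1.24, 1.15 and 1.66, each with its highest value in MYCi975 replicate 3.

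Zbp1, a sensor of Z-form nucleic acids that triggers necroptosis, was the member whose libraries followed the treatments best. Zbp1 was at 9.76, 9.69, 9.67 and 9.85 in Vehicle replicates 1 to 4 and 9.44, 9.23, 9.37 and 9.0 in TMP195. For Zbp1, the MYCi975 values were 10.19, 10.12, 9.80 and 10.88, and the Combo values 10.02, 10.03, 9.89 and 9.11. All 4 TMP195 values lay below all 4 Vehicle values, which lay close together. All 4 MYCi975 values lay above the Vehicle mean, but replicate 3, the library high in most other members, overlapped with Vehicle. Combo replicates 1 to 3 lay above Vehicle and replicate 4 below it, at the level of TMP195.

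Isg15 is a ubiquitin-like modifier, Usp18 removes it and damps signalling at the type I receptor, and Trim25 activates the sensor RIG-I. Isg15 was at 5.82, 6.36, 5.71 and 6.01 in Vehicle replicates 1 to 4 and 6.12, 6.04, 5.74 and 5.67 in TMP195. For Isg15, the MYCi975 values were 6.06, 6.27, 6.85 and 6.0, and the Combo values 5.88, 5.76, 6.19 and 6.10. These values lay close to the lowest value of the table, where differences are compressed, and all groups overlapped. Usp18 was 10.07 in MYCi975 replicate 3 and between 7.57 and 8.84 elsewhere. Dtx3l and Parp9, which work as a complex, and Parp14 were also high in Vehicle replicates 2 and 4, at 12.02 and 12.10 for Dtx3l and 11.19 and 11.13 for Parp9.

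Cxcl10 encodes a chemokine that draws T cells and is induced strongly by interferon gamma. Cxcl10 was at 9.46, 10.45, 8.76 and 10.59 in Vehicle replicates 1 to 4 and 10.70, 9.08, 9.09 and 7.78 in TMP195. For Cxcl10, the MYCi975 values were 9.78, 9.02, 10.37 and 10.49, and the Combo values 9.83, 9.75, 9.73 and 8.29. TMP195 replicate 1 was the highest library and TMP195 replicate 4 the lowest, so that group alone covered the range of all 16. Combo replicate 4 was the second lowest. Of the RNA sensors, Ddx58 (RIG-I) and Dhx58 (LGP2) were highest in MYCi975 replicate 3, at 11.53 and 8.82, and Ifih1 (MDA5) was 8.39 there against 8.69 in Vehicle replicate 2. Ifi35, Ifi44, Rtp4 and Xaf1, induced genes of various functions, were all highest in MYCi975 replicate 3.

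**Figure D2:**
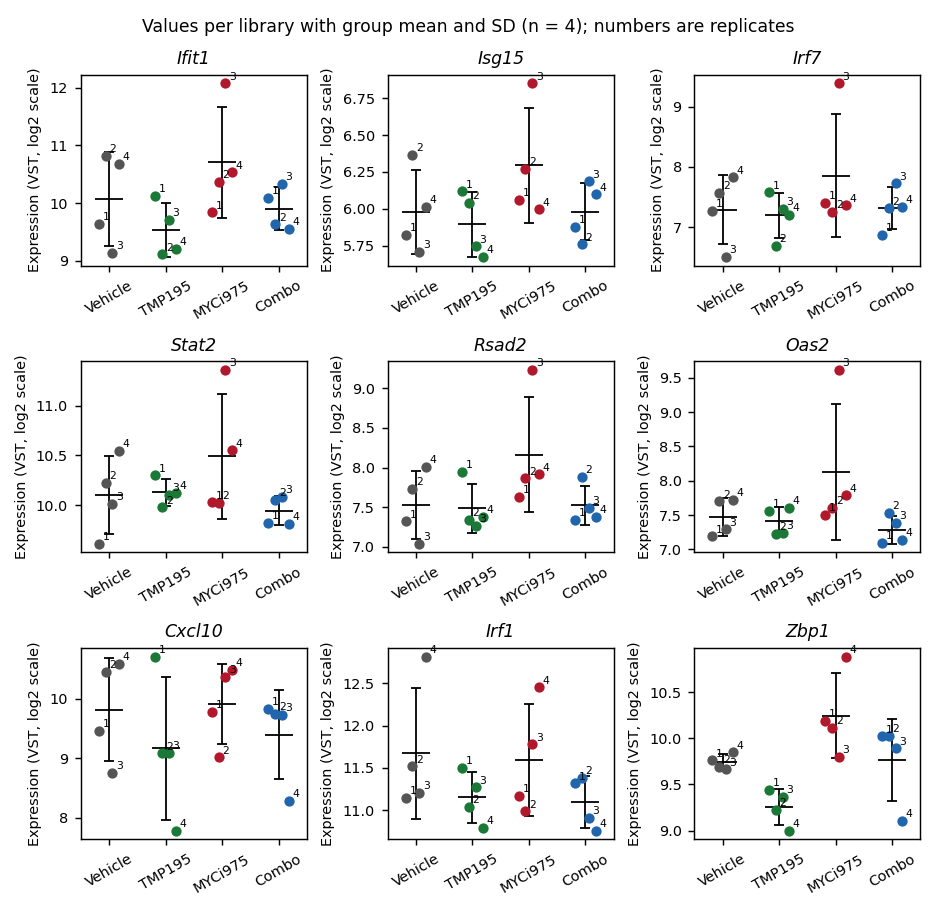
Expression of 9 members in each library (points, numbered by replicate) on the variance-stabilised log2 scale, by group, with the group mean and SD (n = 4). MYCi975 replicate 3 stands above all others for Irf7 (9.40) and Oas2 (9.61), Irf1 is highest in Vehicle replicate 4 (12.81), and the 4 TMP195 points of Zbp1 lie below all Vehicle points.

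The first comparison, of MYCi975 with Vehicle, concerns MYC inhibition alone. It shares its 4 Vehicle libraries with the other comparisons against Vehicle, so these are not independent of each other. Of the 35 genes, 33 had a higher mean in MYCi975 and 2 a lower one, Irf1 (-0.07) and Ifit2 (-0.08), with a median difference of 0.25. Of all tested genes, 47.1% were higher and 52.9% lower, with a median of -0.01. At an unadjusted p under 0.05, 2 members were higher and none lower, against 476 of all genes (3.03%), or 1.51% in each direction. The 2 were Zbp1 (0.50, standard error (SE) 0.21, limma adjusted p = 0.999, exact permutation p = 0.0571) and Rsad2 (0.64, SE 0.29, adjusted p = 0.999, exact permutation p = 0.2), each above the Vehicle mean in 4 of 4 libraries. No member's groups were separate, against 0.789% of all genes higher and 0.706% lower. Mx2 was next in order of p (0.47, SE 0.23, adjusted p = 0.999). Oas2 differed by 0.65 (SE 0.33), Ifit1 by 0.63 (SE 0.42), Irf7 by 0.56 (SE 0.39) and Stat2 by 0.39 (SE 0.24). By role, medians ran from 0.16 for the genes of ISG15, ubiquitin and ADP-ribosylation to 0.45 for the IFIT genes, and Cxcl10 differed by 0.10.

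Without MYCi975 replicate 3 the median over the 35 genes was -0.01, and 15 genes were higher and 20 lower. Oas2 was then at 0.16, Ifit1 at 0.18, Irf7 at 0.05, Stat2 at 0.10 and Rsad2 at 0.28, and Oas3 moved from 0.12 to -0.37. Ifih1 was at 0.25 with that library and at 0.23 without it. Zbp1 moved the other way, from 0.50 to 0.65, and it was the 1 member with an unadjusted p under 0.05. The Zbp1 value rested more on MYCi975 replicate 4, without which it was 0.29, and its unadjusted p was not under 0.05 in 3 of the 8 omissions of 1 library. Without Vehicle replicate 3 the median was 0.08, with 25 genes higher, 10 lower and none at an unadjusted p under 0.05. Without Vehicle replicate 1 the median was 0.17, and without MYCi975 replicate 4 it was 0.23. The remaining omissions moved the values up. Without Vehicle replicate 4 the median was 0.37 and all 35 genes were higher, 4 of them at such a p. Without MYCi975 replicate 1 it was 0.36 with 9 genes at such a p, and without MYCi975 replicate 2 it was 0.39 with 5. Without Vehicle replicate 2 it was 0.34 with 4. The shares of all genes at such a p in these omissions are not given here.

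**Figure D3:**
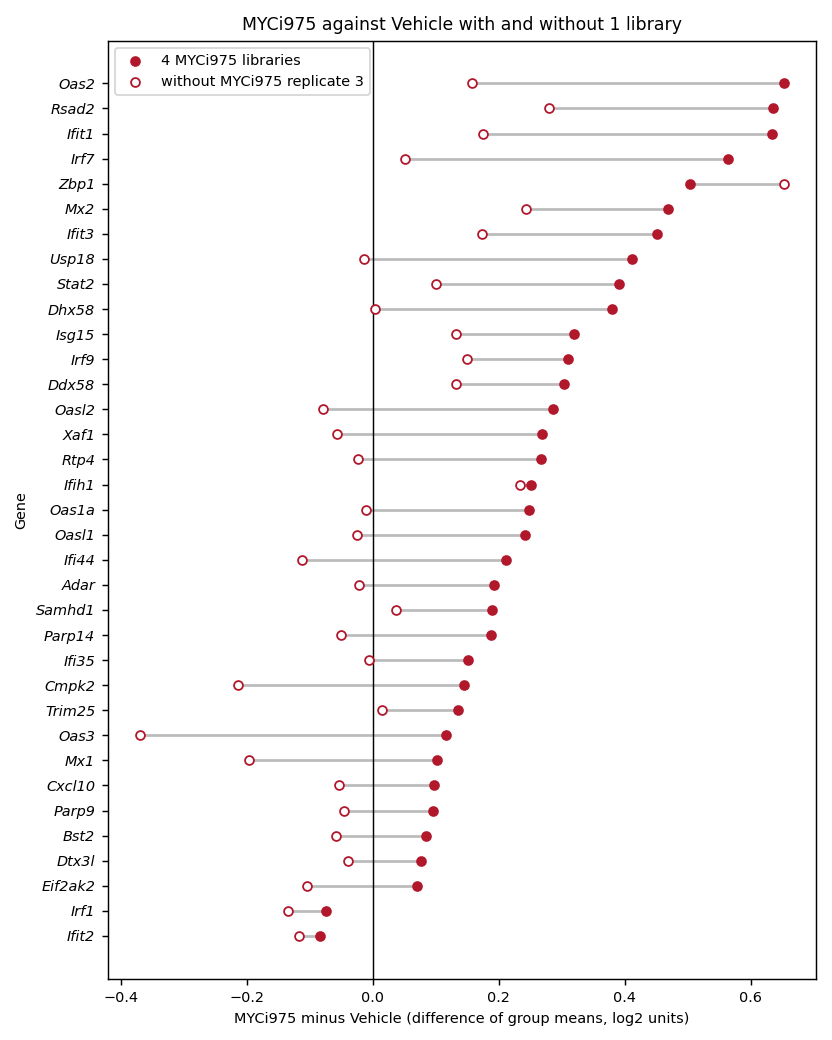
Difference between the MYCi975 and Vehicle means (x axis, log2 units) for each member (y axis), with all 4 MYCi975 libraries (filled) and without MYCi975 replicate 3 (open). Most open points lie near 0, with a median of -0.01 against 0.25, and Zbp1 is the gene whose open point lies further right, at 0.65.

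The comparison of TMP195 with Vehicle concerns inhibition of class IIa histone deacetylases alone. Of the 35 genes, 29 had a lower mean in TMP195 and 6 a higher one, with a median difference of -0.11 and a range from -0.65 (Cxcl10, SE 0.54) to 0.21 (Mx2, SE 0.23). Of all tested genes 53.7% were lower and 46.3% higher, with a median of -0.01. Zbp1 was the 1 member with an unadjusted p under 0.05, against 767 of all genes (4.88%), or 2.44% in each direction. It was also the 1 member whose groups did not overlap, against 1.4% of all genes lower and 1.1% higher. It differed by -0.48 (SE 0.21, limma adjusted p = 0.945), below the Vehicle mean in 4 of 4 libraries, with an exact permutation p of 0.0286, the smallest that 4 against 4 libraries allow. Irf1 (-0.52, SE 0.34) and Ifit1 (-0.53, SE 0.42) came next in order of p, with adjusted p of 0.945 and 0.951. The OAS genes were all lower, with a median of -0.22, as were the IFIT genes, with -0.36. The transcription factors Stat2 and Irf9 differed by 0.03 and 0.01.

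These counts rested on Vehicle replicate 4. Without it, 15 genes were lower and 20 higher, with a median of 0.02, and Irf1 was at -0.14. The Zbp1 difference was -0.45 without that library and ran from -0.54 to -0.40 over all settings that left out 1 library. In 5 of these 8 settings, and with quantile normalisation, its unadjusted p was not under 0.05. Without Vehicle replicate 3, 34 genes were lower, with a median of -0.31 and 2 at an unadjusted p under 0.05, and without TMP195 replicate 1, 33 were lower, with a median of -0.27 and 2 at such a p. Leukocyte markers were higher in TMP195, with 7 of 7 above Vehicle and a median of 0.76. With the mean level of these markers as a covariate, all 35 interferon response genes were lower in TMP195, with a median of -0.57 and 11 at an unadjusted p under 0.05, and none was called (smallest limma adjusted p = 1). The share of all genes at an unadjusted p under 0.05 with this covariate is not given here, so the 11 have no background. TMP195 replicate 4 had a leukocyte level of 6.62, above all 4 Vehicle libraries, and the lowest Cxcl10 of all 16 libraries.

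The comparison of Combo with Vehicle concerns both compounds together. Of the 35 genes, 31 had a lower mean in Combo and 4 a higher one, with a median difference of -0.18, while 52.6% of all genes were lower and 47.4% higher. No member had an unadjusted p under 0.05, against 642 of all genes (4.09%), 2.17% higher and 1.92% lower. No member's groups were separate, against 1.79% of all genes higher and 1.53% lower. The 3 members with the smallest p were Bst2 (-0.44, SE 0.25), Irf1 (-0.58, SE 0.34) and Mx2, which was higher (0.38, SE 0.23, in 4 of 4 libraries above the Vehicle mean), each with a limma adjusted p of 0.987. Irf7 differed by 0.02 and Oas2 by -0.19. Zbp1 differed by 0.02, its Combo libraries lying on either side of Vehicle. Without Vehicle replicate 4 the median was -0.04, with 22 genes lower and 13 higher. Without all 4 libraries numbered 4 it was above 0, at 0.02, with 23 genes higher and 12 lower. Without Vehicle replicate 3 it was -0.35, with 34 genes lower, 2 of them at an unadjusted p under 0.05.

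Combo was set against MYCi975 for the addition of TMP195 to MYC inhibition. All 35 genes had a lower mean in Combo, from -0.09 (Mx2) to -0.84 (Oas2), with a median of -0.44, while 49.8% of all genes were lower and 50.2% higher. At an unadjusted p under 0.05 there were 5 lower members, against 365 of all genes (2.32%), 1.18% lower and 1.15% higher. They were Oas2 (-0.84, SE 0.33, exact permutation p = 0.0571), Stat2 (-0.55, SE 0.24, exact permutation p = 0.171), Zbp1 (-0.48, SE 0.21, exact permutation p = 0.229), Usp18 and Rsad2, each with a limma adjusted p of 1. Bst2 was the 1 member whose groups were separate, against 0.815% of all genes lower and 0.891% higher (-0.52, SE 0.25, exact permutation p = 0.0286). Without MYCi975 replicate 3, 31 genes were lower and 4 higher, the median was -0.23, and Zbp1 was the 1 member with an unadjusted p under 0.05. Without MYCi975 replicate 1 or 2 the medians were -0.59 for both, and 12 and 13 members were lower at such a p. Without Combo replicate 4, 1 member was. The shares of all genes at such a p without these libraries are not given here. Leaving out MYCi975 replicate 3, Oas2 was at -0.35, Stat2 at -0.26, Bst2 at -0.38 and Zbp1 at -0.63. Zbp1 was at -0.27 without MYCi975 replicate 4 and at -0.26 without Combo replicate 4.

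Combo was set against TMP195 for the addition of MYCi975. Of the 35 genes, 22 were lower and 13 higher, with a median of -0.06, while 49.3% of all genes were lower and 50.7% higher. Zbp1 was the 1 member with an unadjusted p under 0.05, against 837 of all genes (5.33%), 2.49% higher and 2.84% lower. It differed by 0.51 (SE 0.21, limma adjusted p = 0.873, exact permutation p = 0.114), and 3 of 4 Combo libraries lay above the TMP195 mean. It was 0.72 without Combo replicate 4 and as low as 0.42 without another library, and in 5 of the 8 omissions of 1 library its unadjusted p was not under 0.05. Over all 35 genes, 20 were higher without Combo replicate 4 (median 0.03) and 22 without TMP195 replicate 1 (median 0.07). No member's groups were separate, against 1.75% of all genes higher and 1.62% lower. Eif2ak2 (-0.14, SE 0.15) and Bst2 (-0.22, SE 0.25) came next in order of p, each with an adjusted p of 0.999. With the leukocyte covariate all 35 genes were higher in Combo, with a median of 0.37 and 1 at an unadjusted p under 0.05. Leukocyte markers were lower in Combo than in TMP195, with 7 of 7 below and a median of -0.81.

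The interaction asks whether the Combo difference departs from the sum of the differences of the single compounds. It was below 0 for 30 of the 35 genes and above 0 for 5, with a median of -0.27, while 48.2% of all genes were below 0 and 51.8% above. No member had an unadjusted p under 0.05, against 471 of all genes (3%), 1.4% higher and 1.6% lower. Stat2 (-0.58, SE 0.34), Oas2 (-0.77, SE 0.47) and Rsad2 (-0.60, SE 0.41) had the smallest p, each with a limma adjusted p of 1. Without MYCi975 replicate 3 the median was -0.04, with 22 genes below and 13 above 0. Without Vehicle replicate 4 it was -0.46, with all 35 below and 1 at an unadjusted p under 0.05. It was -0.38 without MYCi975 replicate 1 and -0.42 without MYCi975 replicate 2, with 2 and 1 members at such a p. Leukocyte markers had an interaction below 0 for 7 of 7, with a median of -0.93. With their mean level as a covariate the direction turned, with 28 of the 35 interferon response genes above 0, 7 below and a median of 0.16. For Zbp1 the 95% confidence interval of the interaction ran from -0.63 to 0.64, beside differences of -0.48 in TMP195 and 0.50 in MYCi975, and a departure from the sum within that interval was not detectable.

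**Figure D4:**
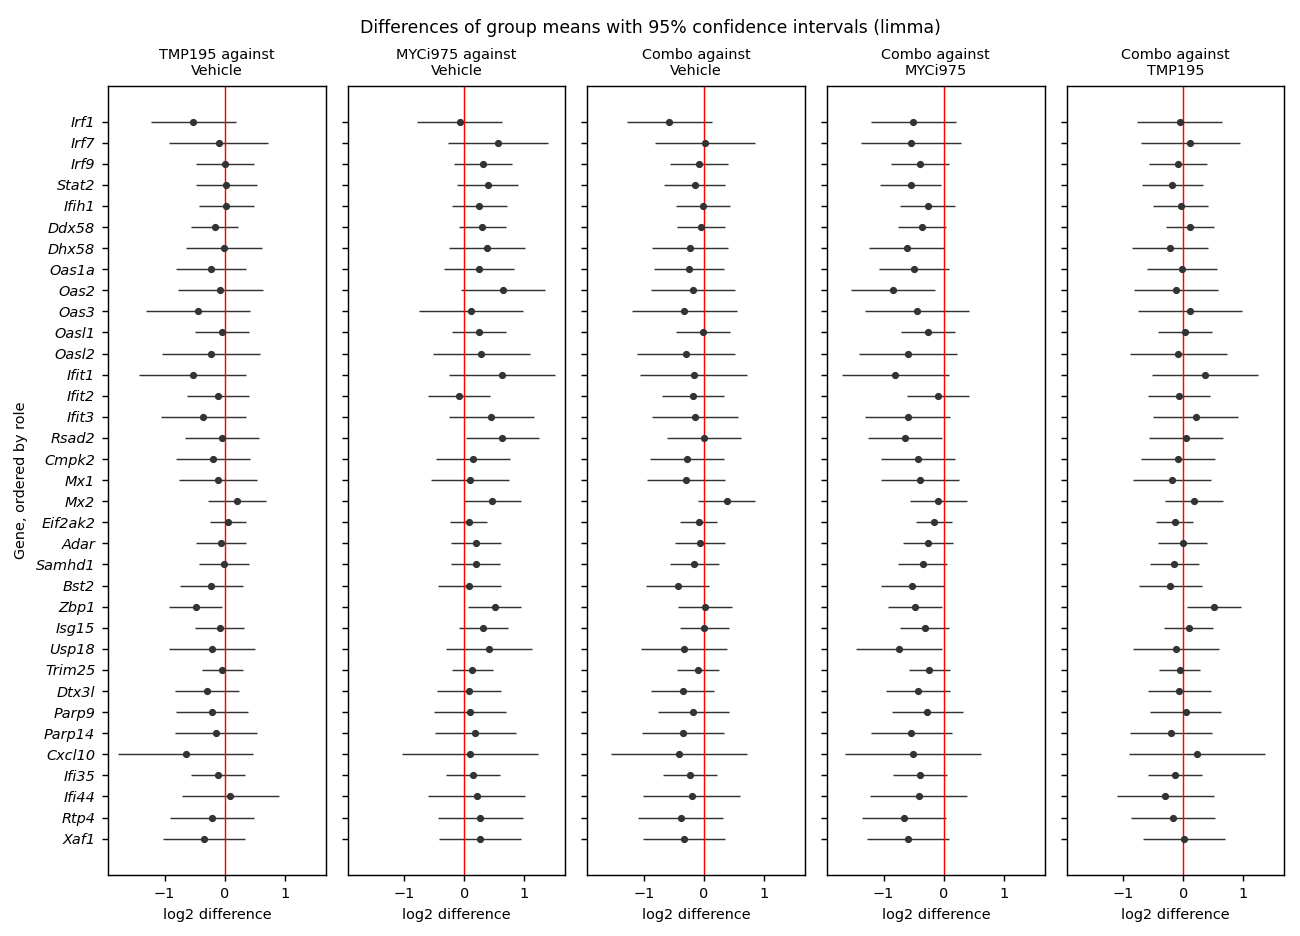
Difference of group means on the log2 scale (points) with limma 95% confidence intervals (lines) for the 35 members, ordered by role, in 5 comparisons. Most intervals cover 0. Zbp1 is below 0 in TMP195 (-0.48) and above 0 in MYCi975 (0.50) against Vehicle, and all points lie below 0 for Combo against MYCi975.

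Other genes of the pathway were compared in the same fit. Of 18 interferon genes listed as ligands, Ifng alone was matched to a row. It was at the lowest value in 11 libraries and above it in 5, highest in TMP195 replicate 1 (5.69), and it did not pass the filter; the other ligands are not analysed here. Of 6 receptor genes 5 passed, at a mean level between 9.65 and 10.08, with none called. Among 5 kinases and STATs, 8 inhibitors and 11 tested genes of nucleic acid sensing, none was called by limma in any comparison. At an unadjusted p under 0.05 there was none among receptors, kinases, STATs and inhibitors, and 1 of the 11 sensing genes. This was Mavs, in TMP195 against Vehicle, where 4.88% of all genes had such a p, and in Combo against TMP195, where 5.33% did. Mavs, the adaptor downstream of RIG-I, had 4 TMP195 values below all 4 Vehicle values (-0.24, SE 0.10, limma adjusted p = 0.945, exact permutation p = 0.0286), and 1.4% of all genes were separate in that direction.

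The guanylate-binding proteins and immunity-related (IRG) GTPases, which attack vacuoles of intracellular microbes and respond to interferon gamma, were all 14 tested and none was called by limma or had an unadjusted p under 0.05. In TMP195 13 of 14 were lower than in Vehicle (median -0.38), in Combo 14 of 14 (median -0.48), and in MYCi975 12 of 14 were higher (median 0.07). Without TMP195 replicate 4, 10 of 14 were higher in TMP195 (median 0.09), without Combo replicate 4, 13 of 14 were lower in Combo (median -0.19), and without MYCi975 replicate 3, 13 of 14 were lower in MYCi975 (median -0.10). Leaving out MYCi975 replicate 4 or Vehicle replicate 1 or 3 also gave medians below 0 in MYCi975, at -0.11, -0.09 and -0.16. Without Vehicle replicate 4 the medians were -0.15 in TMP195 and -0.26 in Combo. Against MYCi975, 14 of 14 were lower in Combo (median -0.57). This held in each omission of 1 library, with medians from -0.78 to -0.28. TMP195 replicate 4 was lowest for 13 of 14, with a median deviation of -1.62, and Combo replicate 4 was next at -1.14. The highest library was Vehicle replicate 4 or TMP195 replicate 1 for 4 genes each, MYCi975 replicate 3 for 3, MYCi975 replicate 4 for 2 and Vehicle replicate 2 for 1. MYCi975 replicate 3, at 0.79, was level with MYCi975 replicate 4, at 0.78, whereas these 2 libraries stood at 0.98 and 0.28 for the interferon response genes. Gbp2 was 13.98 in Vehicle replicate 4 and 10.92 in TMP195 replicate 4.

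**Figure D5:**
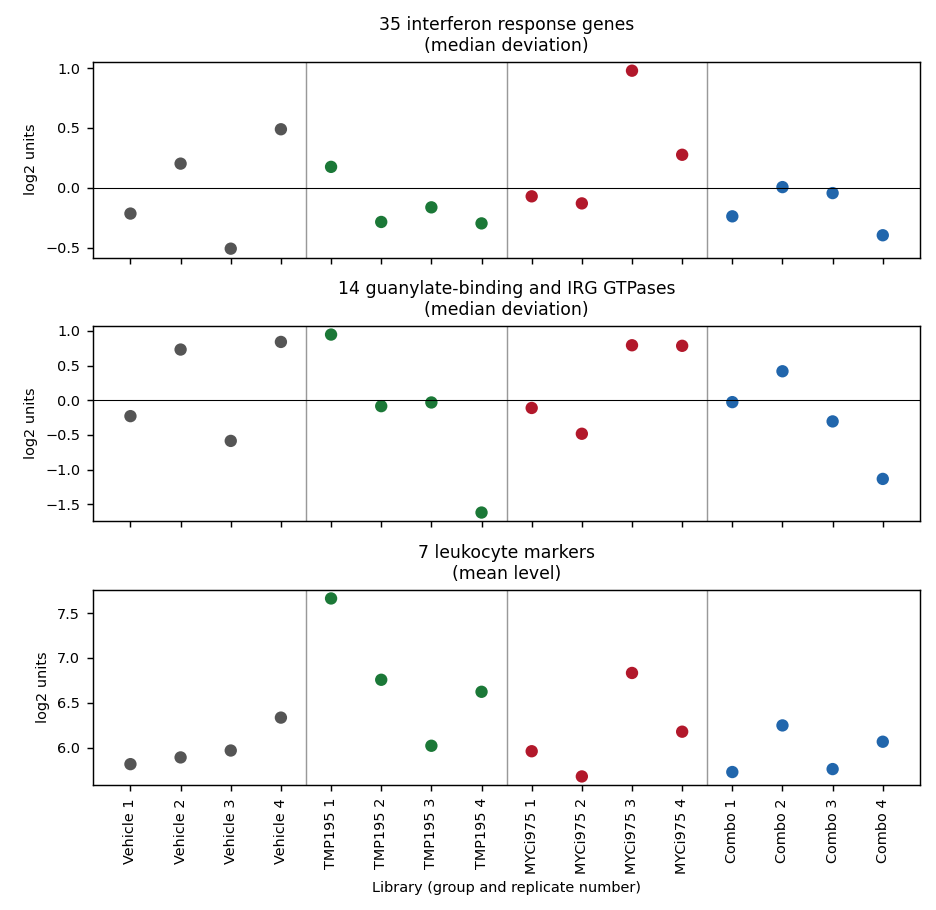
Level of 3 gene lists in each library (x axis, by group and replicate number), in log2 units: the median deviation of the 35 interferon response genes, that of 14 guanylate-binding and IRG GTPases, and the mean level of 7 leukocyte markers. The first list peaks in MYCi975 replicate 3 (0.98), the second is lowest in TMP195 replicate 4 (-1.62), and the third peaks in TMP195 replicate 1 (7.66).

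Members with and without an ISRE core in the promoter stretch searched differed as follows, and their difference was not tested. In MYCi975 against Vehicle the median was 0.32 for the 9 members with the core and 0.19 for the 17 without it, and in Combo against MYCi975 -0.52 and -0.39. In MYCi975 replicate 3 the median deviation was 1.20 for the 9 with the core and 0.73 for the 17 without it. The 328 other tested genes with the core had a median deviation of 0.015 in that library, and the 9886 other genes without it -0.031. In Combo against MYCi975 the median differences of these 2 sets were -0.043 and -0.001, and in MYCi975 against Vehicle -0.002 and -0.026.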

How the data were processed

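Total RNA was extracted with a column kit and made into strand-marking libraries, per the labels' protocols. The authors deposited variance-stabilised values on a log2 scale, 1 column for each of 16 libraries. Salmon, without a version, and the build hg38 are named in the submitters' processing notes, although the samples and identifiers are mouse. For the stabilisation and the annotation, tools and settings were not given in the sources used here, and depth is unknown.

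Symbols were matched by identifier without version (23150 of 24334, 95.13%). Genes at least 1 above the lowest value in at least 4 libraries were fitted with limma 3.58.1 in R 4.3.3, with 1 mean per group, empirical Bayes moderation and an intensity trend. P-values are two-sided, adjusted by the Benjamini-Hochberg method over 15715 genes within each of 6 comparisons, with calls under 0.05. Exact permutation tests are two-sided over 4 against 4 libraries. On simulated data for TMP195 against Vehicle with all 15715 genes, 84 of 100 changes of 1 log2 unit were recovered. Of changes of 2 units, 99 of 100 were recovered, and there were 9 false calls. The changes were planted in genes drawn from all tested genes, with noise independent between libraries. The median residual SD was 0.222 for all tested genes and 0.461 for the members, so recovery for the members is not known.

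The members and lists were chosen with earlier results of these data known. Values in every library are given for Ifit1, Isg15, Irf7, Stat2, Rsad2, Oas2, Cxcl10 and Irf1 and for the 3 members with the smallest p in each comparison. Alternatives were quantile normalisation, median centring, no filter, a stricter filter (2 above the lowest value in 8 libraries, 11597 genes), no trend, robust moderation, quality weights, replicate block, leukocyte covariate, a fit of the compared groups alone, and omission of single libraries. Leaving out all libraries numbered 4 was added after seeing the data.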

Additional observations from a re-analysis of the deposited data

Results flagged for a closer look

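Within groups of 4 libraries, a value was singled out when its gap to the nearest other library as a share of the group's range exceeded Dixon's 95% critical value. Of 144 tests over 35 genes and their median, 8 did so, where chance gives about 1 in 20, or 7.2, so the number is near what chance gives. In MYCi975 replicate 3, Irf7 (0.931) and Oas2 (0.866) were high. In TMP195 replicate 1, Samhd1 (0.933), Dhx58 (0.865) and Rsad2 (0.837) were high. In Combo replicate 4, Cxcl10 (0.934), Ifit2 (0.867) and Zbp1 (0.854) were low.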

How the results depend on the processing

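No interferon response gene was called in any comparison under any of the settings run. The number of all genes called moved from 0 to 65 for Combo against TMP195 with quality weights, to 1 there without a trend, and to 1 for Combo against Vehicle with the compared groups alone. Leaving out 1 library gave 0 to 2 genes for TMP195 against Vehicle and for Combo against TMP195, with 2 when TMP195 replicate 3 was left out, and 0 to 1 for MYCi975 against Vehicle and Combo against MYCi975, with 1 when MYCi975 replicate 2 was left out. With the leukocyte covariate the median over members was -0.575 for TMP195 against Vehicle, 0.368 between Combo and TMP195 and 0.161 for the interaction, the last 2 with the opposite sign to -0.063 and -0.272; the cause was not tested. Without 1 library the medians ran from -0.312 to 0.018 for TMP195, -0.014 to 0.388 for MYCi975 and -0.354 to -0.038 for Combo, all against Vehicle. They ran from -0.591 to -0.233 for Combo against MYCi975, -0.157 to 0.072 against TMP195 and -0.456 to -0.039 for the interaction. Without the libraries numbered 4 the medians were 0.077 for TMP195 and 0.019 for Combo against Vehicle, both above 0.

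Same-numbered libraries of different groups deviated together in part: the median correlation of deviations was 0.187 for 24 such pairs and -0.04 for 72 others, 15 of the 24 were over 0.1, and 9 of 16 libraries correlated best with their own number. The replicate block called 0 genes in each comparison and left the medians at -0.11, 0.248 and -0.184 against Vehicle, since the design is balanced. Depth is unknown, and compression near the lowest value limits Isg15, Oasl1, Mx1 and Mx2 most.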

Other observations

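Among the libraries numbered 4, the level of Irf1 and of other genes induced by interferon gamma was higher in Vehicle and MYCi975 than in TMP195 and Combo; the genes were picked after their values were seen and no test was made. Irf1 was 12.81 in Vehicle and 12.45 in MYCi975, but 10.79 in TMP195 and 10.76 in Combo, the 2 groups that received TMP195. Cxcl10 was 10.59 and 10.49 against 7.78 and 8.29, and Cxcl9, a chemokine induced by interferon gamma, 10.38 and 10.25 against 7.45 and 8.27. Nlrc5, the activator of MHC class I genes, was 11.38 and 10.95 against 9.44 and 9.58. Under the other numbers the order of Cxcl10 was not the same. In the libraries numbered 1, Cxcl10 was 9.46 in Vehicle and 9.78 in MYCi975, and 10.70 in TMP195 and 9.83 in Combo. Named in the same order, the values were 10.45, 9.02, 9.08 and 9.75 in the libraries numbered 2. They were 8.76, 10.37, 9.09 and 9.73 in those numbered 3. The difference of Nlrc5 between Combo and Vehicle was -0.77 (SE 0.36, limma adjusted p = 0.987). Nlrc5 and Cxcl9 belong to a list of 6 other induced chemokines and factors, of which none was called. In Combo against Vehicle, 1 of the 6 was lower at an unadjusted limma p under 0.05, against 1.92% of all genes. In Combo against MYCi975, 1 of the 6 was lower at such a p, against 1.18%.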
